A study of Mus musculus with 6 samples.

Results

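The genes described here are 8 genes of the Lin28 and let-7 axis, namely Lin28a, Lin28b, Trim71, Hmga1, Hmga2, Igf2bp1, Igf2bp2 and Igf2bp3. They were chosen by name, and each symbol matched 1 of the 55401 gene rows of the count table. The table compares V6.5 cells, a mouse embryonic stem cell line from a hybrid embryo, in 2 genotypes. WT cells carry intact Cdh1, the gene of the adhesion protein E-cadherin, and Cdh1-/- cells lack both functional copies. Each genotype has 3 libraries of total RNA, replicates A, B and C, and no treatment is named in the labels. How Cdh1 was disrupted, whether the knockout cells are 1 clone, and the culture medium or feeder cells are not given in the sources used here. An effect of Cdh1 loss and any other difference between these lines therefore cannot be told apart. The labels do not say whether replicates are separate cultures, so p-values measure the spread between these libraries only, which may be technical.

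LIN28A and LIN28B are RNA-binding proteins that bind precursors of the let-7 microRNAs and block their maturation, in part by recruiting enzymes that add uridine tails which mark the precursor for decay. Mature let-7 in turn binds the 3′ untranslated regions (3′UTRs) of many mRNAs and lowers their output, among them the mRNAs of LIN28, TRIM71, HMGA and IGF2BP proteins. Embryonic stem cells are known for high LIN28A and little mature let-7, and let-7 rises as cells differentiate.

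The let-7 family is shown first, because its seed, bases 2 to 8 of the mature strand, defines which mRNA sites it can pair with. RefSeq (GRCm38.p6) lists 11 mature 5′ sequences of the family, and 10 of them share 1 seed. In the examples below capitals mark the seed.
mmu-let-7a-5p: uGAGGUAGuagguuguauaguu
mmu-let-7e-5p: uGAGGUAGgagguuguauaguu
mmu-let-7g-5p: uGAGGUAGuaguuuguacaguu
mmu-let-7j: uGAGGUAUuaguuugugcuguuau
Counted from the 5′ end, let-7e differs from let-7a by U9G, outside the seed, and let-7g by G12U and U18C. The let-7j sequence is the 1 member with another seed, GAGGUAU.

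LIN28 proteins recognise a GGAG run in the loop of the let-7 precursor. A GGAG lies somewhere after the mature 5′ strand in 9 of the 13 hairpins that RefSeq lists. The search ran to the end of each hairpin and was not limited to the loop. In the let-7j hairpin the GGAG lies far past the mature strand, so the count may overstate loops with the run. The hairpin of Mirlet7g (chr9:106178840-106178927, plus strand, GRCm38.p6) is printed as an example, with capitals marking the GGAG.
Mirlet7g hairpin: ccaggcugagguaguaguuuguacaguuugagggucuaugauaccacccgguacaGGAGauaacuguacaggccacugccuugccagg
The count table gave almost no information on let-7 itself. Of 12 listed let-7 gene rows, 11 had 0 counts in all 6 libraries and Mirlet7g had 0 to 2 counts. A row of 0 allows up to 6 counts, or 0.257 to 0.333 CPM (counts scaled to library size) in a library, and mature let-7 was not measured by these counts.

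Each of the 8 mRNAs carries at least 1 match to the let-7 seed in its 3′UTR. The match searched was CTACCTC on the mRNA strand, the reverse complement of the shared seed, in the longest 3′UTR that GENCODE M21 (GRCm38) gives for each gene. The members held 21 such matches, and 13 of them were followed by A, which extends the match to CTACCTCA. Among 14122 tested genes with a 3′UTR, 10.6% held a CTACCTC and 3.63% held a CTACCTCA. Some of these sites are printed here with up to 20 bases before the match, the sense strand read 5′ to 3′, because they are the elements that the members share. Capitals mark the match.
Lin28a first site (chr4:134005189-134005216, minus strand): ggagtgcacagcctgttgaaCTACCTCa
Lin28a second site (chr4:134004551-134004578, minus strand): gctttgagatcgccacaaacCTACCTCa
Lin28b first site (chr10:45381022-45381049, minus strand): ccttcacccgggcgggaagtCTACCTCa
Trim71 first site (chr9:114512472-114512499, minus strand): agtacaacattgcctaagtcCTACCTCa
Trim71 second site (chr9:114512376-114512403, minus strand): tgtgaagtgataatttctatCTACCTCa
Hmga1 site (chr17:27563272-27563299, plus strand): tcttctcctctgttcacaaaCTACCTCt
Hmga2 first site (chr10:120364224-120364251, minus strand): ggggcgccgacattcaatttCTACCTCa
Igf2bp1 first site (chr11:95961778-95961805, minus strand): gcagtgctgtgcgaagtaaaCTACCTCa
Igf2bp2 site (chr16:22059473-22059500, minus strand): gaaaaacacacaaataaaagCTACCTCa
Igf2bp3 site (chr6:49086787-49086814, minus strand): aaacgtgcatttttactcaaCTACCTCa

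The number of matches differed between members. Trim71, with a 3′UTR of 5512 bases, held 4 matches, all of the longer form. Igf2bp1 (6337 bases), Lin28b (4445 bases) and Hmga2 (3014 bases) also held 4 each, of which 3, 1 and 1 were of the longer form. Lin28a (2775 bases) held 2, and Hmga1, Igf2bp2 and Igf2bp3 held 1 each. Longer 3′UTRs hold more matches by length alone, so each member was set beside tested genes whose 3′UTR was within 10% of its length. At least as many matches as in Trim71 were found in 0 of 304 such genes, as in Igf2bp1 in 0 of 193, as in Hmga2 in 0.117% of 852, as in Lin28b in 0.428% of 467 and as in Lin28a in 2.22% of 901. For Igf2bp3, Igf2bp2 and Hmga1 the shares were 14.8%, 12.04% and 9.74%. The members were listed as genes of the let-7 axis, whose mRNAs let-7 is known to bind in the 3′UTR. An excess of matches over other genes therefore follows in part from that choice and is no independent finding. A match describes letters in the annotated 3′UTR and does not show that let-7 binds there.

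The libraries held between 18020719 and 23381942 counts. Cdh1 itself lay between 537 CPM and 571 CPM in WT and between 166 CPM and 183 CPM in the knockout libraries (log2 fold change -1.70, adjusted p 2.9e-08), so every library matched its label in direction. All 10 listed stem cell markers were detected in every library, with a summed level of 4916 to 5342 CPM in WT and 5530 to 6628 CPM in the knockout. Among them Tdgf1 (1302 ± 32.1 CPM in WT, 2014 ± 191 CPM in the knockout, SD, n = 3 each) and Fgf4 (log2 fold change 0.29) were higher, and Klf2 was lower, at 65.8% of its WT mean (adjusted p 0.00144). Knockout replicate A stood apart from the other knockout libraries on the second principal component (27.8 against -8.25 and -15.1), so the members' values without it are given where they were called, changed direction or moved by over 1.5 times. Without it, called stem cell markers numbered 5 in place of 3. With all libraries, 13.3% of all tested genes were called in either direction. Levels are CPM after scaling of library sizes by TMM. A gene was called when its adjusted p in edgeR's quasi-likelihood test, Benjamini-Hochberg adjusted across 17325 genes, lay under 0.05.

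All 8 members passed the filter on low counts and were tested. Lin28a, Lin28b and Igf2bp3 were lower in Cdh1-/- cells, at 57.8%, 61.1% and 67.0% of their WT mean CPM, and 0 members were called higher. The other 5 were not called, and their mean CPM in the knockout lay between 75.5% (Hmga2) and 98.3% (Igf2bp1) of WT. Calls therefore fell on 3 of 8 members, against 13.3% of all tested genes in either direction, 5.71% in the lower direction and 7.60% in the higher direction. The WT and knockout libraries did not overlap in 4 of 8 members, against 30.7% of tested genes. At an unadjusted p under 0.05 there were 4 members, all lower, against 26.7% of all tested genes. DESeq2 and limma-voom called the same number, 3, and also 0 higher. The median log2 fold change of the 8 was -0.30, and that of all tested genes was -0.01.

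**Figure D1:**
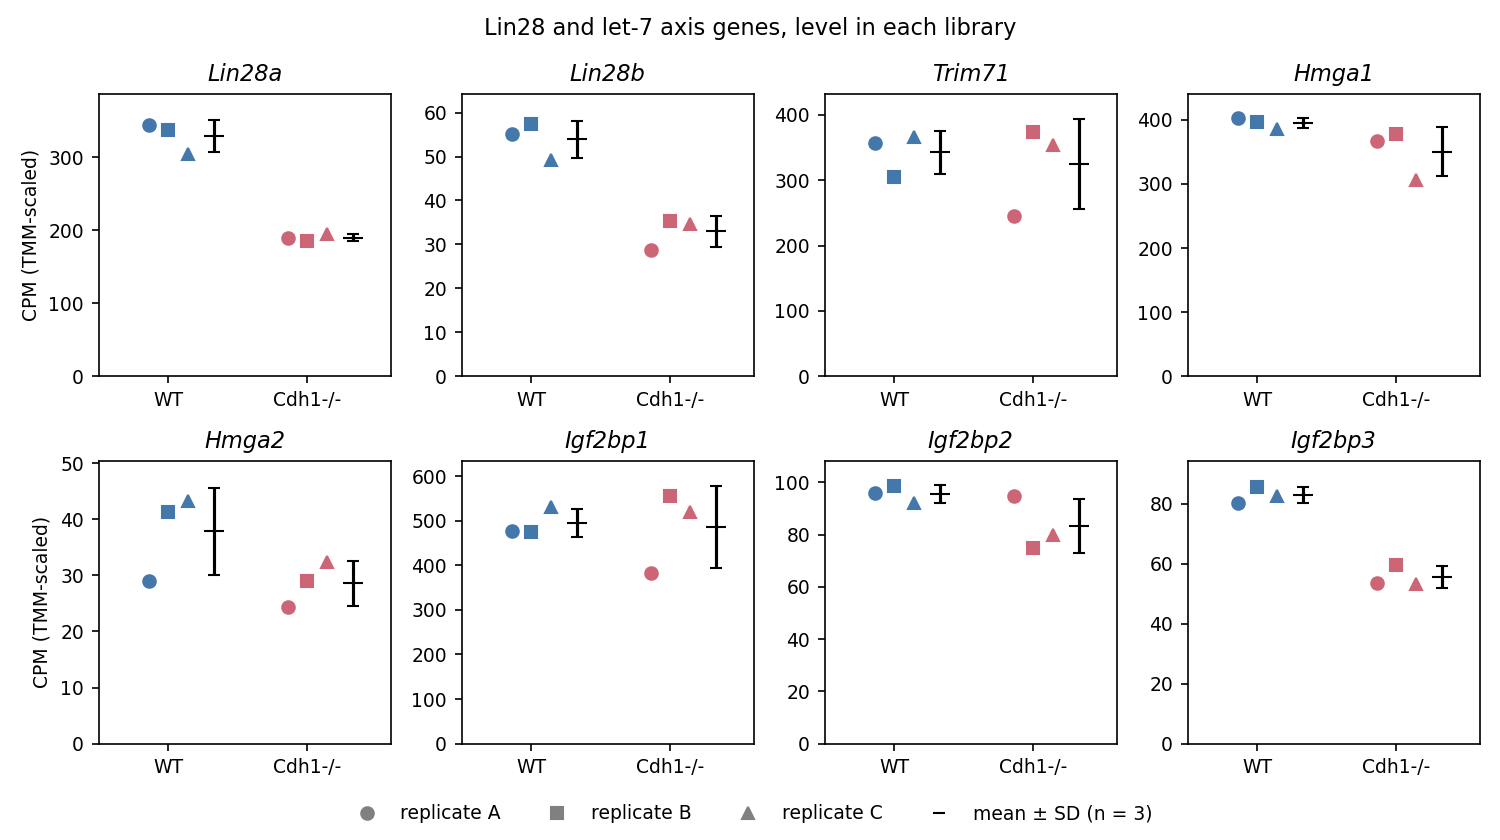
Level of each of the 8 genes in every library, in CPM after TMM scaling on a linear axis from 0, with WT in blue and Cdh1-/- in red, the marker shape giving the replicate letter and the black bar the mean ± SD of 3 libraries. The knockout points of Lin28a, Lin28b and Igf2bp3 lie below all WT points, while those of Trim71 and Igf2bp1 lie on both sides of the WT mean, with knockout replicate A lowest.

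Of the 8 genes, the LIN28 pair showed the largest fold changes. Lin28a (ENSMUSG00000050966.9, chr4:134003330-134018841, minus strand, GRCm38), the form that dominates in embryonic stem cells, stood at 344, 337 and 304 CPM in the WT libraries, given in the order A, B, C here and below. In the Cdh1-/- libraries it stood at 190, 186 and 194 CPM. The groups were far apart, and the knockout libraries lay within 5 CPM of their mean. The log2 fold change of Lin28a was -0.79 (standard error 0.08, 95% interval -0.97 to -0.61, adjusted p 2.4e-05), and 6.52% of tested genes had a lower one. Without knockout replicate A it was again -0.79 (adjusted p 3.4e-06).

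Lin28b (ENSMUSG00000063804.8, chr10:45376620-45470201, minus strand), the paralog that acts on let-7 primary transcripts in the nucleus, was counted at a lower level. It stood at 55.2, 57.3 and 49.3 CPM in WT libraries and at 28.8, 35.3 and 34.7 CPM in Cdh1-/- libraries. No knockout library reached the lowest WT library. Its log2 fold change was -0.71 (standard error 0.11, 95% interval -0.95 to -0.47, adjusted p 0.000664). Without knockout replicate A, the lowest library, it was -0.62 (adjusted p 0.000546).

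Both paralogs fell, and their proportion did not separate the genotypes. Per kilobase of exon, Lin28a was 9.40 ± 0.292 times as abundant as Lin28b in WT and 8.96 ± 1.06 times in the knockout (SD, n = 3 each). The ratio in single libraries ran from 9.07 to 9.62 in WT and from 8.10 to 10.1 in the knockout, and the ranges overlapped (exact two-sided permutation p = 0.60).

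Trim71 (ENSMUSG00000079259.2, chr9:114507133-114564369, minus strand), which encodes an RNA-binding ubiquitin ligase known as a classical let-7 target, was not called, unlike the LIN28 pair. It was counted at 357, 306 and 367 CPM in WT libraries and at 246, 374 and 353 CPM in Cdh1-/- libraries. Knockout replicate A was the lowest of all 6 libraries, and B was the highest. The log2 fold change was -0.08 (95% interval -0.36 to 0.20, adjusted p 0.756), and without knockout replicate A it was 0.09 (adjusted p 0.606). The ratio of Trim71 to Lin28a, per kilobase of exon, lay between 0.340 and 0.454 in WT and between 0.487 and 0.757 in the knockout, without overlap. This ratio uses the same counts as the Lin28a call and is not independent of it. An exact two-sided permutation test gave p = 0.10, the smallest that 3 libraries against 3 allow, and 0.267 after adjustment over the 8 ratios and shares tested in this way.

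HMGA proteins bind AT-rich DNA and shape chromatin. Hmga1 (ENSMUSG00000046711.16, chr17:27556497-27563674, plus strand) stood at 403, 397 and 386 CPM in WT libraries and at 367, 377 and 307 CPM in Cdh1-/- libraries. All knockout libraries were below all WT libraries, but the gap between the nearest libraries of the genotypes was smaller than the spread of the knockout. Its log2 fold change was -0.17 (95% interval -0.37 to 0.02, adjusted p 0.238), and without knockout replicate C it was -0.08 (adjusted p 0.682). Hmga1 has a near-identical copy, Hmga1b on chromosome 11, with 74.7 ± 2.23 CPM for WT against 65.6 ± 4.70 CPM for Cdh1-/- (SD, n = 3 each). Reads could be split between these genes, so both values are uncertain, and 5.84% of the exon bases of Hmga1 also lie under genes of the opposite strand.

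Hmga2 (ENSMUSG00000056758.14, chr10:120361275-120476469, minus strand), a well-known let-7 target, was counted at 29.0, 41.3 and 43.3 CPM in WT. In the knockout it was counted at 24.3, 29.0 and 32.4 CPM. WT replicate A overlapped the knockout range. The log2 fold change of Hmga2 was -0.40 (standard error 0.15, 95% interval -0.73 to -0.08) and missed the threshold with an adjusted p of 0.103. It passed without WT replicate A (log2 fold change -0.56, adjusted p 0.0285), with replicate letter as a block (-0.40, adjusted p 0.0268) and with no filter on low counts (-0.38, adjusted p 0.0403).

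IGF2BP proteins bind mRNAs and control their stability and transport. Igf2bp1 (ENSMUSG00000013415.9, chr11:95957163-96005940, minus strand), the form with the most counts, stood at 478, 474 and 531 CPM in WT libraries and at 383, 556 and 519 CPM in Cdh1-/- libraries. As for Trim71, knockout replicate A was lowest and B highest of all libraries. The log2 fold change of Igf2bp1 was -0.02 (95% interval -0.27 to 0.23, adjusted p 0.927), and it was 0.12 without knockout replicate A (adjusted p 0.389).

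Igf2bp2 (ENSMUSG00000033581.17, chr16:22059009-22163299, minus strand) stood at 95.8, 98.8 and 92.1 CPM in WT libraries and at 94.7, 75.0 and 80.0 CPM in Cdh1-/- libraries. Knockout replicate A lay within the WT range and the other knockout libraries below it. The log2 fold change was -0.20 (95% interval -0.41 to 0.01, adjusted p 0.216). Without knockout replicate A it was -0.30 and passed the threshold (adjusted p 0.0358).

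Igf2bp3 (ENSMUSG00000029814.10, chr6:49085223-49214957, minus strand) was the IGF2BP gene that fell. It was counted at 80.3, 85.6 and 82.5 CPM in WT libraries and at 53.5, 59.7 and 53.3 CPM in Cdh1-/- libraries. The libraries of each genotype lay close together and the groups were apart. The log2 fold change was -0.58 (standard error 0.09, 95% interval -0.77 to -0.38, adjusted p 0.000636), and without knockout replicate A it was -0.55 (adjusted p 0.00063). Of its exon bases, 35.2% lie under Malsu1 on the opposite strand. The libraries were made with a kit that keeps strand, per the labels' protocols, but whether featureCounts used the strand is not given in the sources used here. Reads of this stretch therefore cannot be assigned with certainty. Malsu1 itself had 20.3 ± 2.28 CPM for WT against 19.96 ± 1.76 CPM for Cdh1-/- (SD, n = 3 each; log2 fold change -0.02, adjusted p 0.941). The share of Igf2bp3 among the 3 IGF2BP mRNAs comes from the same counts and is not independent of the Igf2bp3 call. Per kilobase of exon, Igf2bp3 made up 18.7% ± 0.753 of their sum in WT and 14.03% ± 1.03 in the knockout (SD, n = 3 each), and the libraries of the 2 genotypes did not overlap. The exact permutation p was again 0.10, the smallest possible, and 0.267 adjusted over the same 8 tests.

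**Figure D2:**
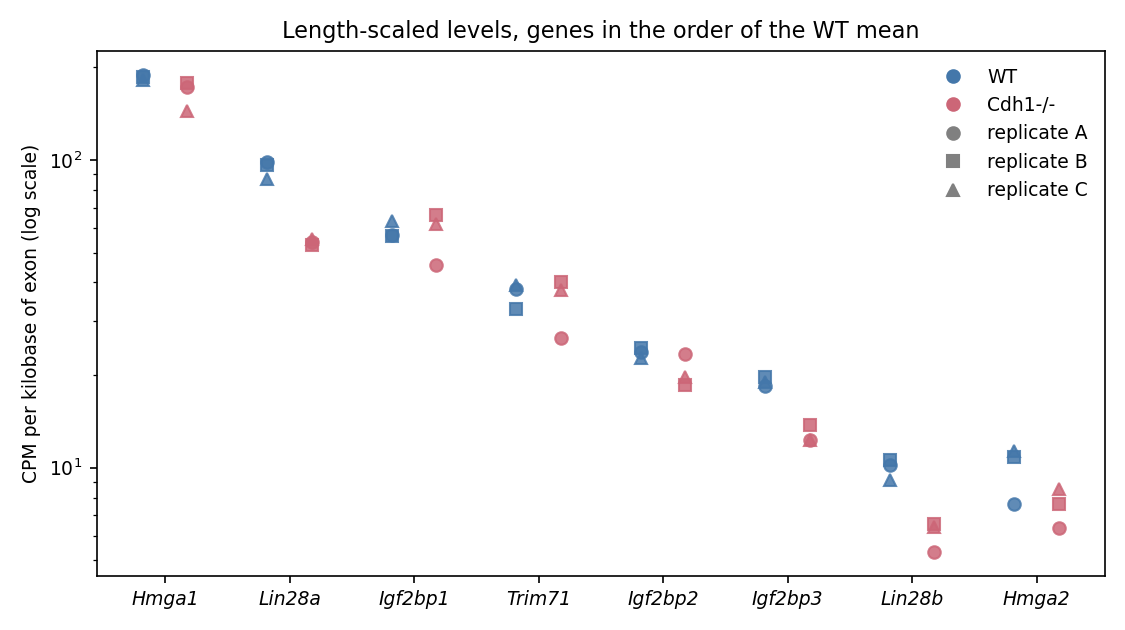
CPM per kilobase of exon in every library on a log axis, with the 8 genes in the order of their WT mean, WT in blue and Cdh1-/- in red and the marker shape giving the replicate letter. Lin28a lies above Igf2bp1 in WT, and the knockout points of both overlap.

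Scaled by exon length, so that genes can be compared, the WT level fell from Hmga1 at 186 ± 3.95 CPM per kilobase to Lin28b at 9.98 ± 0.774 and Hmga2 at 9.94 ± 2.03 (SD, n = 3 each). Lin28a was second at 93.7 ± 6.17, followed by Igf2bp1 at 59.0 ± 3.78, Trim71 at 36.8 ± 3.53, Igf2bp2 at 23.6 ± 0.821 and Igf2bp3 at 19.1 ± 0.606 CPM per kilobase. In WT, Lin28b and Hmga2 were the 1 pair of neighbours in this order whose libraries overlapped. In the knockout, Lin28a at 54.2 ± 1.21 CPM per kilobase overlapped Igf2bp1 at 58.0 ± 10.9, and Hmga2 at 7.503 ± 1.06 overlapped Lin28b at 6.10 ± 0.668. Measured this way, Hmga1 exceeded 98.6% of tested genes in WT and Lin28a 96.5%, against 64.2% for Lin28b and 64.0% for Hmga2.

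Genes that handle let-7 precursors were examined next, from a list of 11 genes that were all tested. In this list 1 gene was higher in the knockout and 10 were not called, with a median log2 fold change of -0.07. Over all tested genes 13.3% were called in either direction, so this list held no excess of calls. Trim25, which encodes a cofactor of uridine-tail addition with LIN28A, rose from 133 ± 8.20 to 169 ± 14.5 CPM, a log2 fold change of 0.35 with an adjusted p of 0.0194. Its call was lost without WT replicate A (adjusted p 0.107), WT replicate B (0.0885) or knockout replicate C (0.101). Tut4 and Tut7, which encode the enzymes that add the tail, had log2 fold changes of -0.21 (adjusted p 0.180) and 0.19 (adjusted p 0.204). Dis3l2, the nuclease that degrades tailed precursors, had one of -0.15 (adjusted p 0.430). The others were Tut1 (log2 fold change 0.08), the genes of the RNA-binding proteins Khsrp (-0.01), Hnrnpa1 (-0.07) and Syncrip (0.11), the RNA methyltransferase gene Mettl1 (-0.13), Msi1 (-0.11), which encodes Musashi, and the helicase gene Dhx9 (-0.29), with adjusted p from 0.164 to 0.976. Dhx9 stood at 252 CPM in knockout replicate A against 377 and 385 CPM in the others, and without that library its log2 fold change was -0.12 (adjusted p 0.401).

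The general microRNA machinery was covered by 15 genes, all tested, of which 1 was lower and 1 higher, with a median log2 fold change of -0.13. Over all tested genes 13.3% were called in either direction, so the list did not stand out by its number of calls. Ago1 and Ago2 encode Argonaute proteins, which hold mature microRNAs. Ago1 fell from 117 ± 4.82 to 87.6 ± 8.35 CPM, a log2 fold change of -0.41 with an adjusted p of 0.00776, with all knockout libraries below WT. Without WT replicate A its adjusted p was 0.0502, and without knockout replicate C it was 0.0576. Ago2, whose protein is itself described as a substrate of TRIM71, rose from 407 ± 40.2 to 505 ± 33.6 CPM, a log2 fold change of 0.31 with an adjusted p of 0.0356. That call was lost in 6 of 16 alternatives, at adjusted p up to 0.129. Drosha, Dgcr8, Xpo5 and Dicer1, the cutting and export steps, were not called. With replicate letter as a block, 5 genes of this list were called in place of 2.

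**Figure D3:**
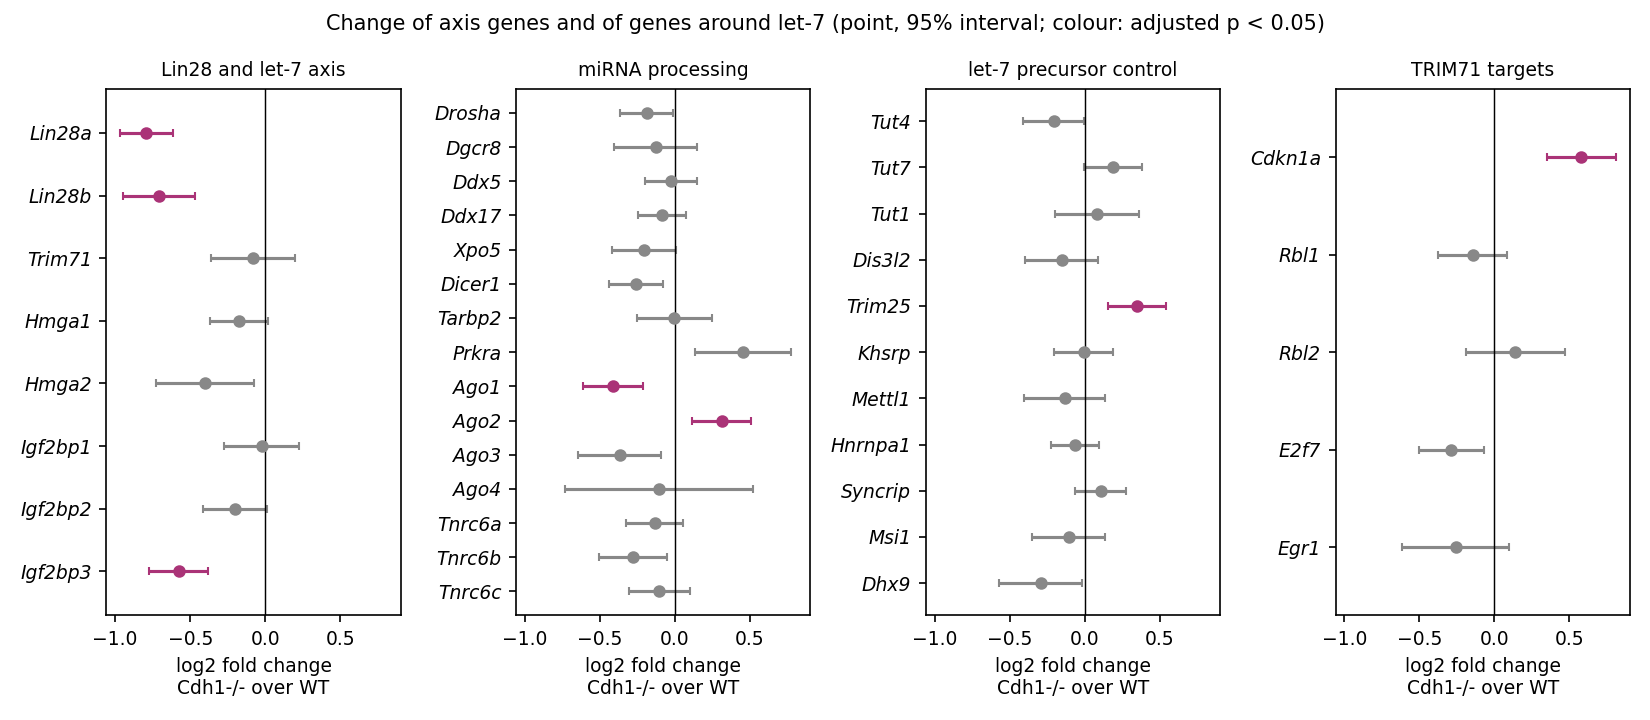
Log2 fold change of Cdh1-/- over WT with its 95% interval for the 8 axis genes, 15 microRNA processing genes, 11 let-7 precursor genes and 5 TRIM71 targets, coloured where the adjusted p lay under 0.05. The coloured genes are Lin28a, Lin28b and Igf2bp3 (-0.79, -0.71 and -0.58) among the axis genes, and Ago1, Ago2, Trim25 and Cdkn1a in the other panels.

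Of the host genes of let-7, Huwe1 and Wdr82 had enough counts to be tested. Their log2 fold changes were -0.13 (adjusted p 0.383) and -0.06 (adjusted p 0.717). Neither passed at an unadjusted p under 0.05, and DESeq2 and limma-voom also called 0. The factors Pou5f1, Sox2, Nanog and Sall4 belong to the network around Lin28a in stem cells. Listed together with Tcf3, they had a median log2 fold change of -0.03. The Tcf3 row (ENSMUSG00000020167.14, chromosome 10) was matched by symbol only and may not be the network factor known by that name. In edgeR's test 0 of these 5 genes were called and 0 had an unadjusted p under 0.05, and DESeq2 and limma-voom called 0.

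Other mRNAs described as let-7 targets moved in both directions. Of 27 listed and tested, 4 were lower and 2 higher, against 13.3% of all tested genes in either direction, with a median log2 fold change of -0.09, and 19 of the 27 held a CTACCTC in the 3′UTR. The 6 calls became 9 without knockout replicate A and 4 without WT replicate A, WT replicate B or knockout replicate C. Nr6a1, a nuclear receptor gene with 8 matches, the most among tested genes, fell from 99.3 ± 11.4 to 59.9 ± 9.59 CPM, a log2 fold change of -0.73 with an adjusted p of 0.000974. Thbs1, which encodes thrombospondin and held 0 matches, fell from 15.4 ± 2.69 to 4.77 ± 2.06 CPM, a log2 fold change of -1.70 with an adjusted p of 0.000641. E2f2, a cell cycle transcription factor gene with 2 matches, rose from 16.7 ± 0.699 to 29.5 ± 6.39 CPM, a log2 fold change of 0.82 with an adjusted p of 0.00216. Cdk6, a cell cycle kinase gene with 0 matches, fell by 0.53 on the log2 scale (adjusted p 0.0277), and the call failed without WT replicate A (adjusted p 0.0908), WT replicate B (0.132) or knockout replicate C (0.133). Hic2 and Acvr1b, named after their values were seen, had log2 fold changes of -0.29 and 0.41 (adjusted p 0.0273 and 0.0052).

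Of 5 listed mRNAs described as repressed by TRIM71, 1 was called, against 13.3% of all tested genes in either direction. The median log2 fold change of the 5 was -0.15, and 3 of them were fitted lower. Cdkn1a, the gene of the cell cycle inhibitor p21 and a described target of TRIM71, rose from 36.2 ± 2.101 to 54.2 ± 5.71 CPM, a log2 fold change of 0.58 with an adjusted p of 0.00223. Knockout libraries lay between 47.6 and 57.6 CPM and WT libraries between 34.2 and 38.4 CPM. Rbl1, Rbl2, E2f7 and Egr1 were not called, with log2 fold changes of -0.15, 0.14, -0.29 and -0.26 (adjusted p 0.430, 0.620, 0.0775 and 0.352). The upper-quartile scaling called 2 genes of this list.

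Among 4 RNAs described as bound by IGF2BP proteins, 2 were lower and the others were not called, while 8 of 16 alternatives, DESeq2 and limma-voom among them, called 3. Of all tested genes, 5.71% were called lower and 13.3% in either direction. H19, an imprinted noncoding RNA, stood at 5.49, 5.20 and 8.35 CPM in WT libraries and at 0.221, 0.830 and 1.11 CPM in Cdh1-/- libraries, a log2 fold change of -3.11 with an adjusted p of 0.000137. Actb, the gene of beta-actin, fell from 1604 ± 89.9 to 1200 ± 206 CPM, a log2 fold change of -0.42 with an adjusted p of 0.0200. The Actb call was lost without WT replicate A (adjusted p 0.0928) or WT replicate C (0.0705). Igf2 and Cd44 lay between 0.332 and 5.40 CPM in all libraries, with log2 fold changes of -0.56 (adjusted p 0.446) and -1.39 (adjusted p 0.0525).

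Changes of tested genes were then set beside the number of let-7 matches in their 3′UTR. Genes with 0 matches (12629) had a median log2 fold change of 0.01, those with 1 match (1311) of 0.03, those with 2 (155) of -0.02 and those with 3 (16) of 0.00. The 11 genes with 4 or more matches had a median of -0.29, and 4 of these 11 are members described here. Within this group 3 were lower (Lin28b, Nr6a1 and Hic2), against 6.32% of all 14122 tested genes with a 3′UTR. Lin28b is a member, and Nr6a1 and Hic2 come from the list of other let-7 targets above, so these calls repeat earlier ones. Trim71 and Igf2bp1 had the same number of matches as Lin28b without being called. At least 1 match was held by 1493 tested genes, of which 8.37% were lower and 10.5% higher, against 6.07% and 8.88% of genes with 0 matches. Their median 3′UTR lengths differed, 2294 bases against 1040 bases, and the part of length in these shares was not tested.

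**Figure D4:**
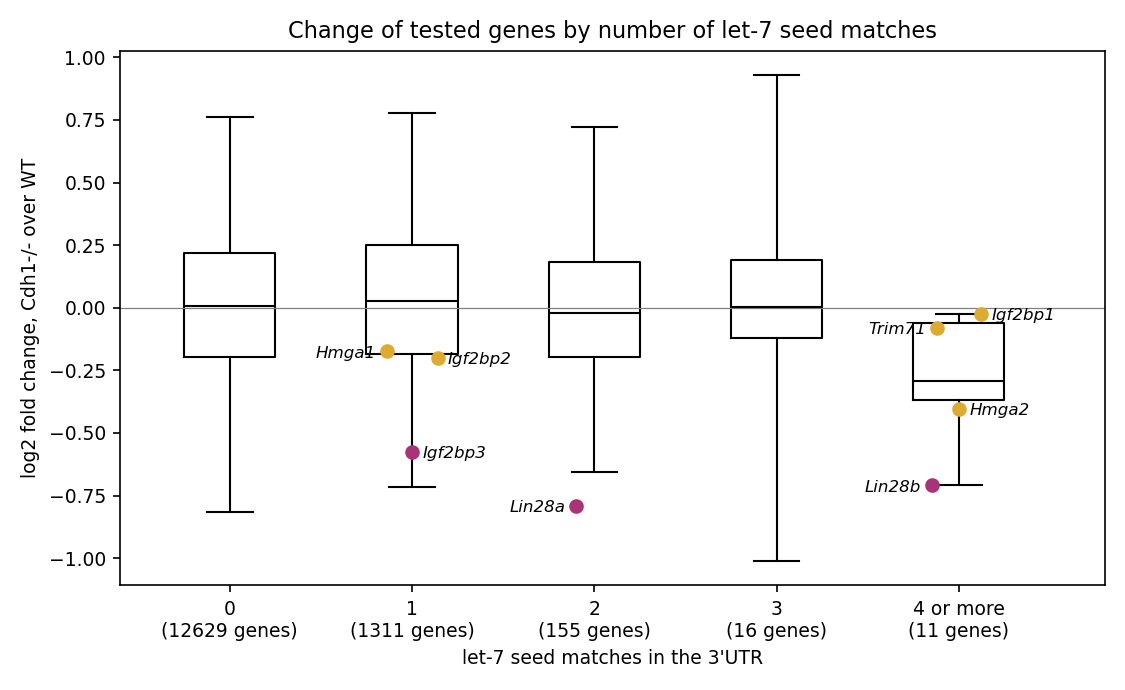
Log2 fold change of Cdh1-/- over WT for tested genes grouped by the number of let-7 seed matches in the 3′UTR, as boxes of the quartiles with the median and whiskers from the 5th to the 95th percentile, and the 8 axis genes as points, purple where called and yellow where not. Boxes for 0 to 3 matches centre near 0, the box of 11 genes lies at -0.29, and Lin28a and Igf2bp3 reach low values with 2 matches and 1 match.

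The genes whose profile over the 6 libraries was most like that of a called member were found by the root mean square difference of centred log2 CPM. They came from 12847 candidates with a mean of at least 50 counts. For Lin28a they were Lgals9 (0.04), Fn1 (0.06) and Map4k4 (0.07), with log2 fold changes of -0.85, -0.73 and -0.72. For Lin28b they were CN725425 (0.06), Cpsf4l (0.07) and Pcdh1 (0.07). For Igf2bp3 they were Elavl2 (0.03), Zfp981 (0.05) and Epb41l5 (0.05). With 6 libraries in 2 groups, likeness by this measure includes the size of the genotype difference itself.

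Markers of other cells and states are given because members such as Hmga2 and the Igf2bp genes are also expressed in fibroblasts and in early differentiating cells. In bulk RNA, fewer cells of a type and less RNA per cell cannot be told apart. Counts of called markers below stand against 13.3% of all tested genes called in either direction, 5.71% lower and 7.60% higher. Summed fibroblast markers lay between 54.0 and 65.4 CPM in WT and between 67.7 and 88.3 CPM in the knockout. Of 13 listed, 7 were tested, with 2 called higher (Pdgfra and Fbn1) and 1 called lower (Col1a1). The 6 others, Postn, Lum, Dcn, Twist2, Prrx1 and Lox, stayed under 1 CPM in all libraries. The higher sum rests on Pdgfra and Fbn1 and does not describe the list as a whole. Of the 7 tested, 4 were fitted lower and 3 fitted higher, with a median log2 fold change of -0.17. Mean Col1a1 fell from 12.5 CPM to 4.49 CPM. The A libraries of both genotypes stood apart in collagen markers: Col3a1 was at 5.13 CPM in WT replicate A and 2.32 CPM in knockout replicate A, against 0.0874 to 1.0 CPM in the other 4 libraries. Col1a2 was at 4.59 and 3.32 CPM in the A libraries, against 0.437 to 1.82 CPM elsewhere, and Postn was counted in the A libraries only. Pdgfra was at 6.73 ± 2.04 CPM in WT libraries and 18.9 ± 5.22 CPM in Cdh1-/- libraries, and Fbn1 at 15.2 ± 1.91 and 36.4 ± 7.09 CPM. Called fibroblast markers numbered 5 in place of 3 without knockout replicate A. Primed and formative markers summed to 455 to 495 CPM in WT and to 283 to 330 CPM in the knockout, and 5 of 9 tested were lower, among them Lef1, Otx2, Zic2 and Dnmt3a. Neural markers summed to 136 to 177 CPM in WT and to 98.2 to 135 CPM in the knockout, with Pax6 and Nes lower (log2 fold changes -3.14 and -0.88) and Pou3f2 higher, at under 2 CPM throughout, of 5 tested. Endoderm markers summed to 31.1 to 46.0 CPM in WT and to 75.6 to 145 CPM in the knockout. All 6 tested were higher, with Sox7 (log2 fold change 2.18), Sox17 (2.15), Foxa2 (2.03) and Gata4 (1.70) leading. Foxa2 had only 4 to 6 counts in the WT libraries, and its call was lost in 5 of 14 alternatives, at adjusted p up to 0.180. Leaving out a library gave 4 to 6 called endoderm markers. No listed marker was at 0 in all libraries, and the part of these shifts in the lower levels of Lin28a, Lin28b and Igf2bp3 was not tested.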

How the data were processed

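The authors deposited raw counts per gene, which are not normalized, for 6 libraries. Reads passed through cutadapt 2.10, STAR 2.7.5b and featureCounts 2.0.1 with build GRCm38, per the submitters' processing notes, which give no settings. Low counts were mostly even (78.1% to 83.1% of counts from 1 to 10), as arises if the mates of a pair count separately, so the floor was set at 6 counts. It covers counting error only. In R 4.3.3, edgeR 4.0.16 (filterByExpr by group, TMM, glmQLFit and glmQLFTest, genotype as the only term) tested 17325 genes. Alternatives used DESeq2 1.42.0, limma 3.58.1 (voom), other scalings and filters, halved counts, the replicate letter as a block and each library left out. Ratios and shares of members were compared by exact permutation tests. The fit was tested on simulated data. Of 55401 identifiers, 55141 received a symbol.

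The 8 members and all lists were chosen with earlier results of these data known. The rule named all members, and from each list every called gene, or the 4 with the largest change where more were called. Let-7 hosts and precursor genes were named in any case, and for each called member the 3 genes most like it. Sequences came from RefSeq and GENCODE M21, and 139 of 141 list entries matched a row. No protein sequence was used here. The check used did not settle whether letters A, B and C pair the libraries. The correlation of deviations between same-letter libraries was 0.179, -0.118 and 0.389, and between different letters it ran from -0.387 to 0.243. The collagen markers in which both A libraries stood apart are a pattern shared by that letter.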

Additional observations from a re-analysis of the deposited data

How the results depend on the processing

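Lin28a, Lin28b and Igf2bp3 were called lower in all 16 alternative fits, with log2 fold changes from -0.84 to -0.76, from -0.76 to -0.62 and from -0.62 to -0.54. The count of called members was 3 or 4 throughout; 4 arose with no filter, with the replicate block (4, Hmga2 added), and without WT replicate A or knockout replicate A. Whether the replicate letters pair the libraries was not settled. Not every library correlated best with its own letter, and the block raised all called genes from 2307 to 2686. An adjusted p under 0.01 gave 1242 genes, and leaving out a library gave 1374 (without WT replicate A) to 2784 (without knockout replicate A), with 1470 without WT replicate B. For lists, the block gave 5 called microRNA processing genes. No filter gave 2 precursor genes and 1 gene of the network list, and upper-quartile scaling gave 2 TRIM71 targets. Leaving out a library gave 0 to 3 processing genes, 0 to 1 precursor genes and 1 to 2 IGF2BP-bound RNAs. It gave 0 to 1 genes of the network list and 4 to 9 other let-7 targets. Some values near 0 changed sign: with no filter Igf2bp1 was at 0.0038 and Khsrp at 0.0212. Over fits that left out a library, Hmga1 ranged from -0.22 to -0.0794, Trim71 from -0.18 to 0.0858, Igf2bp1 from -0.12 to 0.12, Tut1 from -0.014 to 0.21, Khsrp from -0.0888 to 0.0515 and Msi1 from -0.22 to 0.0134. The cause was not tested. Of 620 comparisons for the 39 named list genes, 580 kept direction and side of the threshold, 32 lost a call, 1 gained one and 7 changed sign. Depth limits the let-7 rows, Igf2, Cd44, H19, Foxa2 and Pou3f2.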
